A study of Homo sapiens with 6 samples.

Results

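Transcripts of 4 arrestin domain genes, TXNIP, ARRDC4, ARRDC3 and ARRDC1, were followed in Huh7 cells, an established human liver cancer line, in RNA-seq counts from 3 libraries of cells given GABA (gamma-aminobutyric acid, a neurotransmitter) for 24 h and 3 libraries of control cells. All cells were kept in DMEM with fetal bovine serum and antibiotics, and the GABA dose is not stated in the labels. The genes were given by name as arrestin relatives tied to glucose sensing, and they were chosen by their lower counts with GABA in earlier results of this same contrast. Their GABA-over-control values are therefore a description, without a test. The 4 genes are 4 of 5187 genes in the files, and all 4 passed the filter on low counts, which kept 4981 genes. The labels call the libraries biological replicates but do not say whether they came from separate cultures, so the spread and the p-values given here measure only differences between these samples, which may be partly technical. Bulk RNA cannot tell fewer cells of a kind from less RNA per cell.

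Alpha-arrestins are adaptor proteins. An arrestin fold recognises membrane proteins, and PPxY motifs in the tail bring in ubiquitin ligases of the NEDD4 family, so that transporters and receptors are taken up and degraded. TXNIP also binds reduced thioredoxin, and TXNIP and ARRDC4 lower glucose uptake by acting on glucose transporters. Both are known targets of MondoA (MLXIP), a transcription factor that enters the nucleus with its partner MLX when glucose 6-phosphate accumulates and binds paired E-box-like DNA elements; ChREBP (MLXIPL) is the liver paralog. ARRDC3 is known as an adaptor for integrin beta-4, and ARRDC1 recruits the ESCRT protein TSG101 to the plasma membrane, where small vesicles bud.

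The promoters are shown because TXNIP and ARRDC4 are the members known to answer to MondoA. RefSeq (GRCh38.p14) gave 2 start sites each for TXNIP and ARRDC3 and 1 each for ARRDC4 and ARRDC1. Windows from 250 bases before to 50 after each start were searched on both strands for 2 copies of CACGNG on the same strand with a spacer of 5 bases, a relaxed form of the paired element, and for the E-box CACGTG, the CCAAT box sequence and the TATA box sequence TATATA. An E-box can lie inside the paired element. The relaxed form was set with the TXNIP promoter in view. The 250 bases before the TXNIP start (chr1:145996580-145996829, minus strand) and before the ARRDC4 start (chr15:97960453-97960702, plus strand) read 5′ to 3′ as follows, with the paired element and TATATA in capitals in TXNIP and the E-box in capitals in ARRDC4.
TXNIP: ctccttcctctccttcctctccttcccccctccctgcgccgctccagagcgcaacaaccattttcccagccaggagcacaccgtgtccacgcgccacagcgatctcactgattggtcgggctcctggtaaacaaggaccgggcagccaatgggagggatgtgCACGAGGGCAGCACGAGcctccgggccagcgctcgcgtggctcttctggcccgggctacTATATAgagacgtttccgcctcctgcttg
ARRDC4: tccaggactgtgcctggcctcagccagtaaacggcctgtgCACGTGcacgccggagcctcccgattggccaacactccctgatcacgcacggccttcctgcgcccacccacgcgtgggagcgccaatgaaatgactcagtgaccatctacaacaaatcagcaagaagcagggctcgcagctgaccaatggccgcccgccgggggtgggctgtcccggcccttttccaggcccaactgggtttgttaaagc

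TXNIP was the 1 member with the paired element, at -88 to -72 from its upstream start, where 0 is the first transcribed base. Of all 35116 RefSeq windows, 0.057% held it. ARRDC4 was the 1 member with a CACGTG, at -210 to -205, which 7.26% of windows held. CCAAT, found in 34.6% of windows, occurred 3 times in ARRDC4, 2 times at the upstream TXNIP start, and once each at the upstream ARRDC3 start and in ARRDC1. TATATA, in 3.99% of windows, was found in TXNIP alone among the members. The downstream TXNIP start and the downstream ARRDC3 start held none of the 4 motifs. The ARRDC1 promoter was 82% G and C, against 63.6% and 62.8% in the TXNIP and ARRDC4 stretches above. A match in a window is a description of its letters and was not tested as a binding site.

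**Figure D1:**
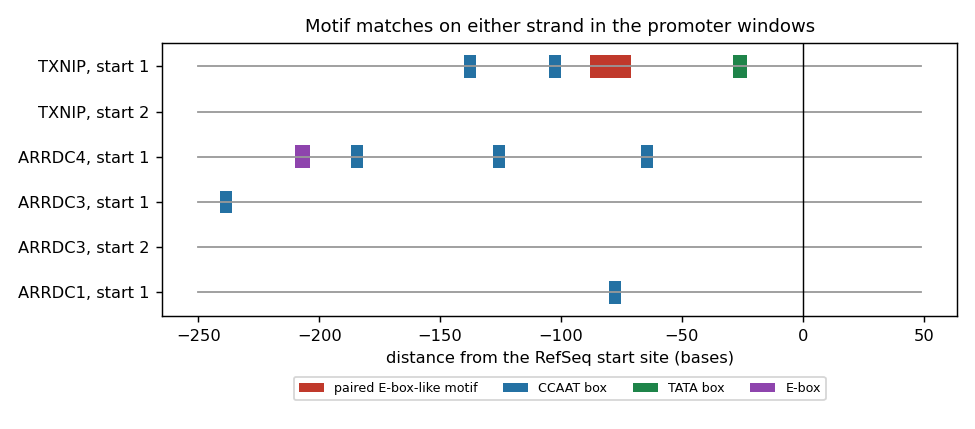
Motif matches on either strand in the 300-base RefSeq promoter windows of the members, by distance from the start site in bases; each bar spans 1 match and the vertical line is the start. The paired element and TATATA stand before the upstream TXNIP start only, and the CACGTG stands in ARRDC4 only.

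TXNIP (ENSG00000265972; chr1:145992435-145996600, minus strand, GENCODE release 29, GRCh38) had the highest level of the 4 and the largest log2 fold change among them. It had 371, 409 and 458 CPM in GABA replicates 1, 2 and 3, against 916, 952 and 926 CPM in control replicates 1, 2 and 3 (CPM, counts-per-million, with TMM-scaled totals over the listed genes). Every GABA library lay below every control library, and the lowest control value was 2.0 times the highest GABA value. The means were 413 ± 43.4 CPM with GABA and 931 ± 18.4 CPM in control (SD, n = 3 each), a log2 fold change of -1.17 ± 0.08 (SE of the edgeR fit), or 55.6% lower. The values rest on 2891, 3167 and 3881 reads in the GABA libraries and 7546, 7348 and 7278 in the control libraries, so that counting error alone is 1.86% or less in each. No exon base of TXNIP overlaps another annotated gene.

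ARRDC4 (ENSG00000140450; chr15:97960698-97973838, plus strand), the closest functional relative of TXNIP in glucose uptake, had the lowest level of the 4. It had 52.8, 62.1 and 56.3 CPM in the GABA libraries, against 93.0, 89.4 and 83.4 CPM in the control libraries. The groups did not overlap, and the lowest control value was 1.34 times the highest GABA value. The means were 57.1 ± 4.72 CPM with GABA and 88.6 ± 4.82 CPM in control (SD, n = 3 each), a log2 fold change of -0.63 ± 0.09, or 35.6% lower. Counts of 411 to 481 with GABA and 656 to 766 in control give a counting error of 3.61% to 4.93%.

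ARRDC3 (ENSG00000113369; chr5:91368724-91383359, minus strand), the integrin adaptor, had the second largest log2 fold change. It had 91.3, 85.1 and 86.4 CPM in the GABA libraries, against 143, 144 and 183 CPM in the control libraries. The GABA values lay close together below all control values, and control replicate 3 stood above the other control libraries. The means were 87.6 ± 3.27 CPM with GABA and 157 ± 22.7 CPM in control (SD, n = 3 each), a log2 fold change of -0.84 ± 0.10, or 44.0% lower; without control replicate 3 it was -0.71. Of its exon bases 2.94% overlap the antisense gene ARRDC3-AS1, and the strand setting of the counting is not given in the sources used here.

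ARRDC1 (ENSG00000197070; chr9:137605654-137615360, plus strand), the vesicle-budding member, had the smallest log2 fold change of the 4. It had 108, 105 and 112 CPM in the GABA libraries, against 151, 159 and 129 CPM in the control libraries. The groups did not overlap, but control replicate 3, the lowest control library here, was only 1.15 times the highest GABA value. The means were 108 ± 3.42 CPM with GABA and 146 ± 15.3 CPM in control (SD, n = 3 each), a log2 fold change of -0.43 ± 0.09, or 25.8% lower; without control replicate 3 it was -0.51. Of its exon bases 5.55% overlap other genes, among them 29 bases of the antisense gene ARRDC1-AS1.

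**Figure D2:**
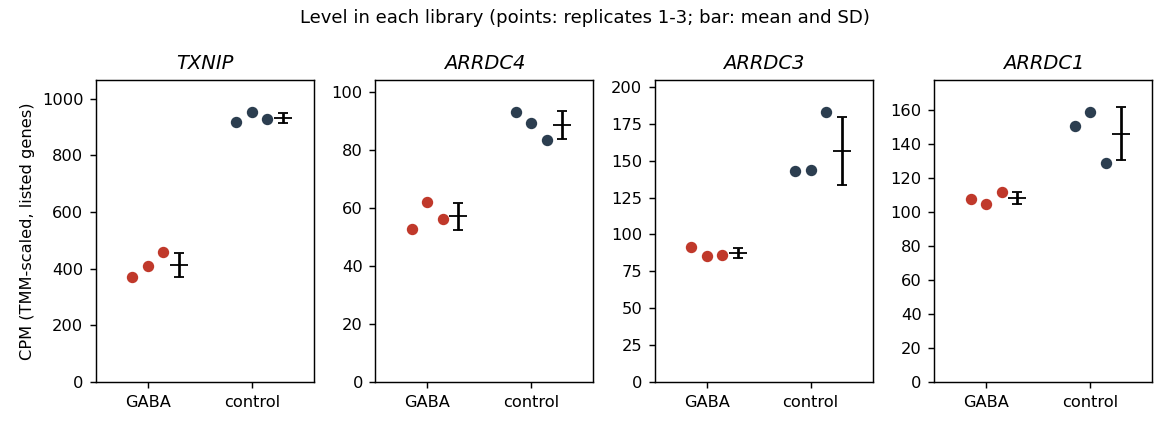
CPM of each member in the 3 GABA and 3 control libraries; points are replicates 1 to 3 from left to right, and the bar beside them is the mean with its SD. All GABA points lie below all control points in each panel, with the widest gap in TXNIP and the narrowest in ARRDC1.

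In all 4 genes the GABA libraries were below the control libraries without overlap. This count cannot be read as a result on the family, because the contrast chose the genes and because nearly all genes in the files passed the same test. Of the 4981 tested genes, 98.7% passed an adjusted p of 0.05 in edgeR's quasi-likelihood test with Benjamini-Hochberg adjustment, 51.2% were called lower with GABA, and 46.7% were lower without overlap (92.5% did not overlap in either direction). The smallest absolute log2 fold change was 0.12, and genes were ordered in the files much as by their p-value (Spearman correlation 0.93 across genes, which are not independent replicates). The listed genes therefore look preselected for a difference in this contrast, though the sources used here do not say so. A gene missing from the files may be unchanged or not expressed, and the files cannot tell which. TXNIP stands at position 4 of the 5187 listed genes, ARRDC3 at 124, ARRDC4 at 367 and ARRDC1 at 858. By log2 fold change alone, TXNIP ranked 158 from the lowest of all 4981 tested genes, ARRDC3 345, ARRDC4 595 and ARRDC1 1064. Among the 3070 genes averaging 50 CPM or more, TXNIP ranked 7, ARRDC3 31, ARRDC4 96 and ARRDC1 330. The median absolute log2 fold change of all tested genes was 0.40, close to that of ARRDC1.

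**Figure D3:**
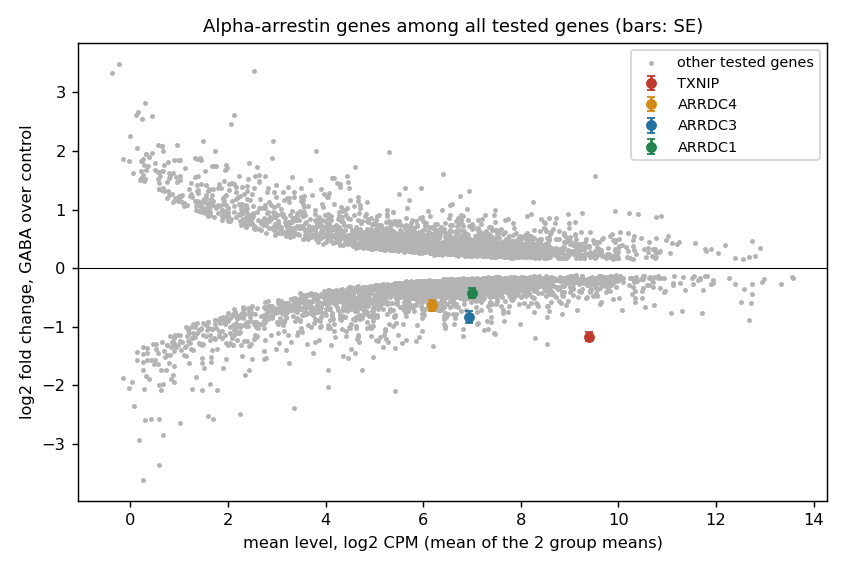
Log2 fold change of GABA over control against mean level in log2 CPM for the tested genes (grey) and the members (coloured, bars are the SE). No tested gene lies within 0.12 of 0; TXNIP, at -1.17, lies farther from this band than ARRDC3, ARRDC4 and ARRDC1.

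Compared per length, TXNIP also led the family in both groups. Its level was 114 ± 12.0 CPM per kb of exon with GABA and 257 ± 5.07 in control (SD, n = 3 each). ARRDC1 followed with 28.4 ± 0.894 CPM per kb with GABA and 38.3 ± 3.99 in control, then ARRDC3 with 17.8 ± 0.663 with GABA and 31.7 ± 4.60 in control, and ARRDC4 with 14.0 ± 1.16 with GABA and 21.8 ± 1.18 in control. With GABA the 3 replicate ranges of ARRDC1, ARRDC3 and ARRDC4 did not overlap. In control, ARRDC1 (33.9 to 41.6 CPM per kb) and ARRDC3 (29 to 37) overlapped, so their order is not settled there. In control replicate 3 ARRDC3 was 1.09 times ARRDC1 per exon base, against 0.735 and 0.701 in control replicates 1 and 2.

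The family's makeup also differed between the groups, since TXNIP was lower by a larger factor than its relatives. The values below restate the log2 fold changes of the contrast that chose the genes, so they too are a description without a test. Ratios between 2 genes of one library do not depend on how the libraries are scaled. TXNIP had 3.43, 3.89 and 4.09 reads per ARRDC1 read in the GABA libraries, against 6.08, 5.99 and 7.16 in the control libraries. For ARRDC4 the ratio was 7.03, 6.58 and 8.14 with GABA, against 9.85, 10.6 and 11.1 in control. Both ratios were lower in every GABA library. The ratio to ARRDC3 did overlap, at 4.07, 4.81 and 5.30 with GABA and 6.41, 6.61 and 5.06 in control, where the lowest control value is that of replicate 3. TXNIP supplied 59.5%, 61.8% and 64.3% of the reads of the 4 genes in the GABA libraries, against 70.3%, 70.8% and 70.1% in the control libraries.

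Within groups the members' deviations differed, most clearly in control replicate 3, a single library. The 2 groups are opposite in spread for TXNIP: its SD on the log2 CPM scale was 0.15 with GABA, larger than that of 96.6% of the genes with at least 50 CPM, and 0.03 in control, where 4.95% of those genes had a smaller SD. ARRDC4 also had the larger SD with GABA, 0.12 against 0.08 in control. ARRDC3 and ARRDC1 showed the reverse, with SDs of 0.05 each with GABA and of 0.20 and 0.15 in control. The medians over genes of at least 50 CPM were 0.06 with GABA and 0.11 in control. With 3 libraries a group these SDs are themselves imprecise, and their differences were not tested. In GABA replicate 1, TXNIP lay 0.15 and ARRDC4 lay 0.11 below their group means on the log2 scale, while ARRDC3 was 0.06 above its own. The counting error there was 4.93% for ARRDC4 and 3.75% for ARRDC3, so the small ARRDC3 deviation may be counting error. In control replicate 3, ARRDC3 was 0.23 above its mean, ARRDC1 was 0.17 below, ARRDC4 was 0.09 below, and TXNIP deviated by 0.01. Of that library's counts on the listed genes, 9.11% were mitochondrially encoded, against 7.74% and 7.15% in the other control libraries and 6.66% to 7.04% in the GABA libraries. This is not a share of all reads, and its part in the ARRDC3 and ARRDC1 values was not tested. Of 6 fibroblast markers 2 were listed, and they moved in opposite directions. PDGFRB had 18.5, 20.9 and 21.1 CPM in the GABA libraries, against 39.1, 47.0 and 34.7 CPM in the control libraries (log2 fold change -0.99 ± 0.13). COL3A1 had 34.4, 33.3 and 27.0 CPM in the GABA libraries, against 20.9, 21.4 and 17.7 CPM in the control libraries (0.66 ± 0.13). Their part in the members' values was not tested. Totals on the listed genes were 7719243 to 8392945 with GABA and 7702666 to 8235028 in control.

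**Figure D4:**
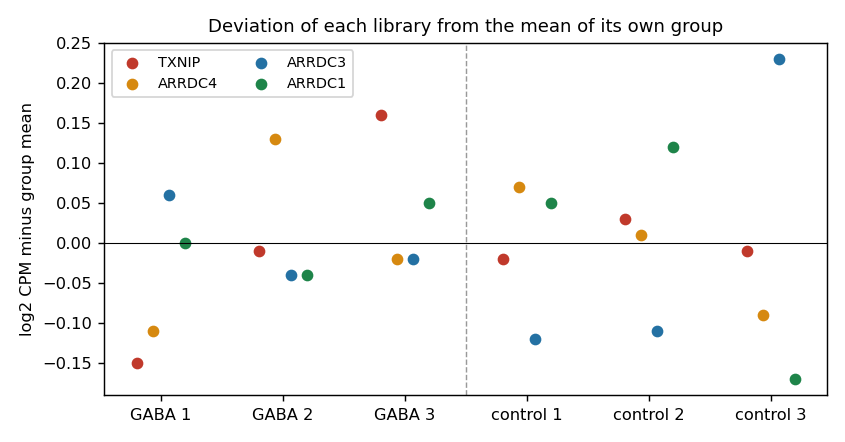
Log2 CPM minus the mean of the library's own group for each member, with GABA libraries left of the dashed line and control libraries right of it. TXNIP spans -0.15 to 0.16 with GABA and stays within 0.03 of its mean in control, whereas ARRDC3 (0.23) and ARRDC1 (-0.17) part most in control replicate 3.

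The other arrestins were nearly absent from the files, which does not show that they are not expressed. Of 9 genes with an arrestin fold outside the family described here, among them ARRDC2, ARRDC5 and the beta-arrestins, 1 was listed: VPS26A, a subunit of the retromer that returns cargo from endosomes, at -0.28 ± 0.08 (adjusted p = 0.0081), or -0.18 without control replicate 3. In the sentences that follow, values are log2 fold changes of GABA over control with the SE, adjusted p-values come from the same edgeR test over all 4981 genes, and list counts should be read against the 47.6% of tested genes called higher and 51.2% called lower. Since 98.7% of the tested genes passed and the files look preselected, a call sets no gene apart. The adjusted p-values of list genes, promoter matches and neighbours are thus descriptive. The genes of 12 lists around the family, 224 different genes, gave 86 tested genes, of which 41 rose, 44 fell and 1 did not pass. Their median was -0.16, against -0.18 for all tested genes. The lists were chosen with earlier results of these data known.

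Among the transcription factors of the MondoA and MAX network, 6 of 15 genes were tested, with 2 higher and 4 lower (median -0.29). MLX, the obligate partner of MondoA, rose to 217 ± 3.75 CPM with GABA, against 161 ± 5.40 in control (SD, n = 3 each; 0.43 ± 0.06, adjusted p = 0.00022). MLXIP, MondoA itself, fell slightly to 155 ± 6.10 CPM with GABA, against 177 ± 8.63 in control (-0.19 ± 0.07, adjusted p = 0.020). The MLXIP call was lost without GABA replicate 2 (adjusted p = 0.09), without control replicate 1 or control replicate 2 (0.051 each), with DESeq2 size factors (0.057) and with DESeq2 (0.082). MXD1, a repressor that pairs with MAX, fell by more (-0.74 ± 0.10, adjusted p = 0.00014), and MXI1, a second such repressor, fell as well (-0.39 ± 0.11). MGA, another MAX partner, rose (0.37 ± 0.07, adjusted p = 0.00061). MLXIPL is not among the listed genes.

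Other glucose-responsive targets of ChREBP and MondoA moved in both directions, with 3 of 6 tested genes higher and 3 lower (median -0.16). KLF10 and KLF11, zinc finger transcriptional repressors, fell like TXNIP. KLF10 had 146, 153 and 149 CPM in the GABA libraries, against 226, 223 and 292 in the control libraries (-0.72 ± 0.10, adjusted p = 0.00011). KLF11 had -0.96 ± 0.12 (adjusted p = 8.2e-05), and ME1, malic enzyme, had -0.60 ± 0.13. The 3 higher genes of the list were SCD, FASN and ACLY. SCD, the stearoyl-CoA desaturase, rose by 0.68 ± 0.08 (adjusted p = 3.1e-05), FASN, fatty acid synthase, by 0.57 ± 0.08, and ACLY, ATP citrate lyase, by 0.28 ± 0.07.

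Genes of glucose entry and use included more called higher than lower. In transport and phosphorylation 6 of 9 tested genes rose and 3 fell (median 0.21), and in glycolysis with lactate and pyruvate entry 8 of 12 rose and 4 fell (median 0.23). HK2, a hexokinase, rose to 586 ± 19.6 CPM with GABA, against 443 ± 32.5 in control (SD, n = 3 each; 0.40 ± 0.07, adjusted p = 0.00045), whereas HKDC1, a related kinase, fell to 74.8 ± 0.373 CPM, against 128 ± 11.6 in control (-0.78 ± 0.09, adjusted p = 3e-05). SLC37A4, the glucose 6-phosphate carrier of the endoplasmic reticulum, rose by 0.63 ± 0.11. SLC2A1, the transporter GLUT1 on which TXNIP acts, was 309 ± 19.3 CPM with GABA and 267 ± 23.3 in control, with overlapping groups (0.21 ± 0.08, adjusted p = 0.022), and did not pass without GABA replicate 1 (adjusted p = 0.1) or GABA replicate 2 (0.067). Of the glycolytic list, PDK2, a kinase that restrains pyruvate dehydrogenase, rose by 0.78 ± 0.13 and PGAM1, phosphoglycerate mutase, by 0.27 ± 0.06, while LDHB, a lactate dehydrogenase subunit, fell (-0.49 ± 0.11). The 4 lower genes of this list became 2 when GABA replicate 2, GABA replicate 3, control replicate 1 or control replicate 2 was left out.

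In the list for the thioredoxin, glutaredoxin and peroxiredoxin system, 11 of 14 tested genes were lower and 3 were higher (median -0.27). TXNIP is described above as binding thioredoxin, not the products of the whole list. The count of lower genes was 6 without GABA replicate 2 or GABA replicate 3, and 7 with DESeq2 size factors or DESeq2. TXN, thioredoxin itself, fell to 1073, 1104 and 1036 CPM in the GABA libraries, against 1243, 1155 and 1504 in the control libraries (-0.28 ± 0.09, adjusted p = 0.0099), and the log2 fold change was -0.17 without control replicate 3. TXNRD1, its reductase, was at 6169 ± 102 CPM with GABA and 7467 ± 346 in control (-0.28 ± 0.06, adjusted p = 0.0021). GLRX2, a mitochondrial glutaredoxin, fell (-0.40 ± 0.08, adjusted p = 0.0011). The 3 higher genes were TXNRD3, a further thioredoxin reductase (0.49 ± 0.09, adjusted p = 0.00097), and RRM1 and RRM2, subunits of ribonucleotide reductase, an enzyme that thioredoxin reduces (0.37 ± 0.08 and 0.40 ± 0.10).

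Of the machinery that alpha-arrestins recruit, 3 of 11 NEDD4-family genes and 9 of 30 ESCRT genes were tested. All 3 tested NEDD4-family genes rose (median 0.24). NEDD4L, a ubiquitin ligase of ion channels, had 1076, 1125 and 1049 CPM in the GABA libraries, against 717, 741 and 757 in the control libraries (0.55 ± 0.06, adjusted p = 2.3e-05). SMURF1 and HECW2, ligases of the same family, rose by 0.20 ± 0.06 and 0.24 ± 0.08. SMURF1 did not pass without control replicate 1 (adjusted p = 0.066), nor HECW2 without GABA replicate 2 (0.071) or GABA replicate 3 (0.066). Of the 9 ESCRT genes 6 rose and 3 fell (median 0.26). CHMP6 and CHMP2A, ESCRT-III subunits, rose by 0.82 ± 0.10 and 0.48 ± 0.07, and VPS36, an ESCRT-II subunit, fell (-0.61 ± 0.07, adjusted p = 3.7e-05). TSG101, the partner of ARRDC1, is not among the listed genes.

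Reported cargoes of the alpha-arrestins were divided, with 2 of 5 tested genes higher and 3 lower (median -0.26). INSR, the insulin receptor, fell (-0.36 ± 0.11, adjusted p = 0.0083), and so did SLC11A2, an iron transporter (-0.29 ± 0.09, adjusted p = 0.011), which did not pass without GABA replicate 2 (adjusted p = 0.059). The count of higher cargoes was 1 without GABA replicate 1 or GABA replicate 2, and that of lower cargoes was 1 without GABA replicate 2.

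Lists of upstream and downstream signalling held both directions. Of 9 tested FOXO and glucocorticoid genes, a group that includes known inducers of TXNIP, 4 rose and 5 fell (median -0.16; 3 fell without GABA replicate 3). SGK1, a kinase, rose by 0.94 ± 0.06 (adjusted p = 8.5e-07), IRS1, an insulin receptor substrate, rose by 0.61 ± 0.10, and CCNG2, a cyclin under FOXO control, fell (-0.50 ± 0.09). Of 9 tested AMPK and mTORC1 genes 3 rose, 5 fell and 1 did not pass (median -0.16). DDIT4, an mTORC1 inhibitor, fell by about as much as TXNIP (-1.20 ± 0.12, adjusted p = 1.7e-05), and the complex subunits MLST8 and MTOR rose by 0.57 ± 0.09 and 0.31 ± 0.07. The 5 lower genes of this list became 2 with DESeq2 size factors, DESeq2 or without GABA replicate 1, and 3 without GABA replicate 2 or GABA replicate 3. Of 5 tested genes of ASK1 signalling and the inflammasome, which TXNIP is known to touch, 2 rose and 3 fell (median -0.21; 1 fell with DESeq2 size factors, without GABA replicate 1 or without GABA replicate 2). The RNA of IL1B, a cytokine gene, rose (1.61 ± 0.09), which is not a measure of inflammasome activity. MAP2K4, a stress kinase, fell (-0.38 ± 0.09), and MAPK8, its target JNK1, rose (0.29 ± 0.08).

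**Figure D5:**
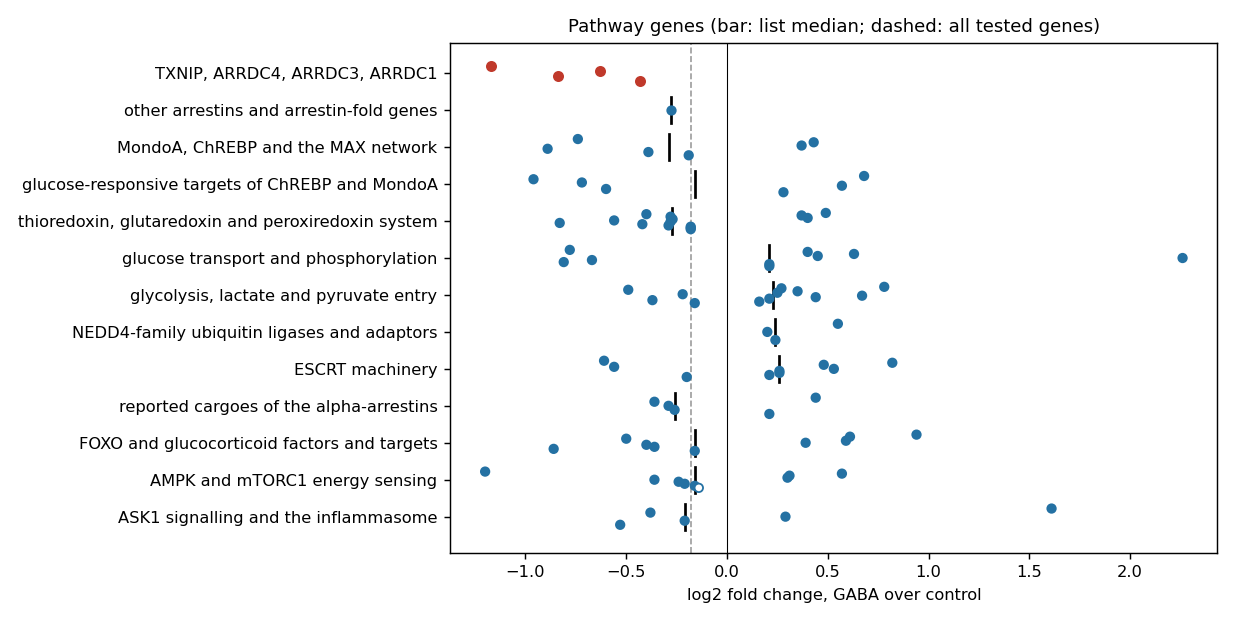
Log2 fold change of GABA over control for the members (red, top row) and the tested genes of the 12 lists (blue; the open point did not pass the adjusted p of 0.05); black bars are list medians and the dashed line is the median of all tested genes, -0.18. The members lie between -1.17 and -0.43, and lists with genes on both sides of the empty band have medians that can fall within it.

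Likeness of pattern was measured as the Euclidean distance between log2 CPM profiles over the 6 libraries, each centred on its own mean, among 3066 other genes with at least 50 CPM. The 5 genes nearest to TXNIP were MIR503HG, a microRNA host transcript (0.28), KCTD15, a BTB domain protein (0.29), ZP3, a zona pellucida glycoprotein (0.30), LINC00963, a noncoding transcript (0.31), and ALDH3B1, an aldehyde dehydrogenase (0.31), against a median distance of 1.27. All were nearer to TXNIP than any of its relatives, which lay at 0.59 (ARRDC3), 0.71 (ARRDC4) and 0.96 (ARRDC1). The profiles keep the difference between the groups, so the distances largely follow the log2 fold change. In the 5 genes nearest to TXNIP that ran from -1.19 to -1.04, against -1.17 in TXNIP. Nearness is thus largely a description of the contrast that chose the members. The closest pair within the family was ARRDC4 and ARRDC1, at 0.36. The genes nearest to the mean profile of the 4 were ALPK1, an innate immune kinase (0.07), SQSTM1, the autophagy receptor p62 (0.10), SPARC, a matrix glycoprotein (0.11), FBXL17, a ubiquitin ligase subunit (0.14), and CYBRD1, an iron reductase (0.15), against a median of 0.76.

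The paired element of the TXNIP promoter was looked up in all RefSeq windows, and 20 genes held it. Of these 7 were listed in the files, TXNIP among them, and the 6 others were all called lower with GABA (median -0.37), 5 of them without overlap between the groups, where 51.2% of tested genes were called lower and 46.7% were lower without overlap. The element in the 4 others with the smallest p is given below for comparison with that of TXNIP, read 5′ to 3′ on its own strand, with the E-box-like copies in capitals and the spacer in lower case (GRCh38.p14).
TXNIP, chr1:145996651-145996667, minus strand: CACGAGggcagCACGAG
PPP2R3C, chr14:35122280-35122296, minus strand: CACGTGgtgcgCACGCG
GFPT1, chr2:69387317-69387333, plus strand: CACGCGccgctCACGCG
ATP5ME, chr4:674433-674449, plus strand: CACGTGaggcgCACGCG
HPF1, chr4:169758066-169758082, minus strand: CACGCGcccagCACGGG
PPP2R3C, a regulatory subunit of a protein phosphatase, had 27.1, 22.4 and 22.9 CPM in the GABA libraries, against 46.9, 49.3 and 55.7 in the control libraries (-1.07 ± 0.12, adjusted p = 3.1e-05). GFPT1, the first enzyme of hexosamine synthesis from fructose 6-phosphate, had 206, 208 and 201 CPM with GABA, against 231, 242 and 281 in control (-0.29 ± 0.08, adjusted p = 0.0054). ATP5ME, an ATP synthase subunit, and HPF1, a cofactor of PARP1, had -0.77 ± 0.21 and -0.43 ± 0.14. The rest were HSPBAP1 (-0.28 ± 0.11) and TCEAL4 (-0.31 ± 0.13, with overlapping groups). The HSPBAP1 call was lost in 6 of the 15 alternative settings, among them each GABA library and control replicate 3 left out (adjusted p 0.053 to 0.085), and the TCEAL4 call in 8, among them each GABA library and control replicates 1 and 2 left out (0.051 to 0.14). Without control replicate 3 the log2 fold change of HSPBAP1 was -0.18 and that of TCEAL4 was -0.49; without control replicate 2 that of TCEAL4 was -0.19. HPF1 lost its call without GABA replicate 1 (adjusted p = 0.051) and had -0.27 without control replicate 3. The window of MYL5 holds the same site as that of ATP5ME, and the window of LOC107986240 the same site as that of HPF1. The 20 genes are thus not 20 separate sites. MYL5 and the remaining genes with the element are not listed, so their direction with GABA is unknown. The element was relaxed with the TXNIP promoter in view, and a shared response was not tested.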

How the data were processed

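Per the submitters' processing notes, CASAVA 1.8, Bowtie 0.12.2 and the hg38 build were used; the counting program, annotation and strand setting are not given in the sources used here. The deposited files hold raw read counts per Ensembl gene, 1 file per library and not normalized. A gene name table paired 4904 of 5187 IDs with symbols; GENCODE release 29 gave the rest and the exon lengths. Counts were fitted with edgeR 4.0.16 (R 4.3.3): filterByExpr (at least 10 reads, total 15), TMM, robust quasi-likelihood fit, all 6 libraries, no block. The p-values were adjusted over 4981 genes. The procedure was also run on simulated counts in which most genes were unchanged. These files differ in that respect, so that run does not bear on the p-values given here. Promoters came from RefSeq tables (GRCh38.p14).

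The members and gene lists were chosen with earlier results of these data known. The text names the members, the 3 genes with the smallest p of each list, 5 genes nearest to TXNIP and 5 nearest to the members' mean; other named genes, including promoter matches and neighbours, were chosen after their values were seen. None of 12 hepatocyte and liver tumour markers, 4 immune or 4 endothelial markers was listed, so the line's identity was not checked; of 6 fibroblast markers, PDGFRB and COL3A1 were listed. Alternatives were other scalings and filters, DESeq2 1.42.0, limma 3.58.1 (voom), a replicate block and each library left out. Every scaling rested on the listed genes, of which nearly all were called, so none can check where a log2 fold change of 0 lies. The median of all tested genes was -0.18 with TMM, and -0.13 with DESeq2 size factors and with DESeq2. Small log2 fold changes and list medians share this uncertainty. The values of 1 gene of the lists are not reported here.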

Additional observations from a re-analysis of the deposited data

How the results depend on the processing

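In all 15 alternative settings the 4 members kept their direction. The log2 fold change with a library left out ran from -1.25 to -1.10 for TXNIP, -0.70 to -0.58 for ARRDC4, -0.90 to -0.71 for ARRDC3 and -0.51 to -0.37 for ARRDC1; the other settings gave -1.18 to -1.13, -0.64 to -0.59, -0.84 to -0.79 and -0.43 to -0.39. This direction was fixed by the choice of genes. Per base of the longest transcript, TXNIP was 10.1 times ARRDC4 with GABA and 14.7 times in control, against 8.15 with GABA and 11.8 in control per exon base, by construction of the length. Genes of the 12 lists called lower fell in number to 31 with DESeq2 size factors, and ran from 28 (without GABA replicate 2) to 44 with a library left out; those called higher ran from 38 to 42. The cause was not tested. The same numbers do not pair the libraries in the labels, and same-numbered deviations correlated at 0.000662, -0.0912 and -0.036. With the replicate block the members had -1.18, -0.64, -0.83 and -0.43 (TXNIP, ARRDC4, ARRDC3, ARRDC1), and 2371 genes were called higher and 2452 lower, against 2369 and 2549 without it. Over all genes, DESeq2 called 2371 higher and 1953 lower. Among 67 other named or neighbouring genes, 958 of 1005 gene and setting values kept their call, 47 lost it and 0 changed sign. With 98.7% of tested genes called, no setting can show how particular the family's difference is.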

Other observations

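Listed genes within 100 kb of the members moved in both directions. LUCAT1, a stress-responsive noncoding transcript 54177 bases from ARRDC3, fell to 72.2, 70.5 and 72.9 CPM in the GABA libraries, against 126, 138 and 125 in the control libraries (log2 fold change -0.85 ± 0.08, edgeR adjusted p = 9.1e-06), close to the -0.84 of ARRDC3. Near ARRDC1, 2 of 3 listed neighbours rose. EHMT1, a histone methyltransferase gene 3603 bases away, rose to 288 ± 3.54 CPM with GABA, against 236 ± 26.9 in control (SD, n = 3 each; 0.29 ± 0.08, adjusted p = 0.0069). ARRDC1-AS1, the antisense gene that shares 29 exon bases with ARRDC1, rose to 75.4, 80.1 and 77.9 CPM in the GABA libraries, against 65.5, 68.5 and 60.8 in the control libraries (0.26 ± 0.09, adjusted p = 0.014), and did not pass without GABA replicate 2 (adjusted p = 0.056). Since the strand setting is not given in the sources used here, reads of the shared stretch could be counted for either gene. MRPL41, a mitochondrial ribosomal protein gene 53099 bases away, fell slightly (-0.19 ± 0.08, adjusted p = 0.045), a call lost in 9 of the 15 settings, among them each GABA library and control replicates 2 and 3 left out (adjusted p 0.053 to 0.19).

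Around TXNIP, ITGA10, an integrin gene 82246 bases away, rose to 7.21 ± 0.129 CPM with GABA, against 3.91 ± 0.427 CPM in control (SD, n = 3 each; 0.88 ± 0.21). LIX1L, at 34434 bases, fell (-0.29 ± 0.07), and so did POLR3GL, a subunit of RNA polymerase III at 13587 bases (-0.37 ± 0.14, adjusted p = 0.025), whose call was lost with DESeq2 and without GABA replicate 1, GABA replicate 2, control replicate 1 or control replicate 2 (adjusted p 0.065 to 0.08). No listed gene lay within 100 kb of ARRDC4.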
